A study of Mus musculus with 25 samples.

Results

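The 10 smooth muscle contractile genes Acta2, Actg2, Myh11, Myl9, Tagln, Cnn1, Smtn, Tpm2, Lmod1 and Des were chosen by symbol, with earlier results of these data known. They are 10 of the 24358 genes in a table of sperm RNA, and all 10 had valid values in every condition. Smooth muscle shortens when myosin filaments pull on actin filaments, under the control of calcium, of kinases that act on the myosin light chains and of proteins bound along the actin filament. In the male tract this muscle forms the wall of the epididymal duct, thickest in the cauda where sperm are stored, and it is also the muscle of blood vessel walls. Sperm have a flagellar motor of another kind, built on microtubules, and these genes are textbook markers of contractile smooth muscle cells.

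RNA was measured by all-RNA-seq, in which the RNA ends are first made ligatable whatever the kind of RNA, in sperm that swam out of incised cauda epididymides of mice aged 14 weeks. The vehicle conditions, C57.CTL.F1 for C57BL/6J and FVB.CTL.F1 for FVB/N, were sons of females given corn oil by mouth. The conditions C57.D300.F1 of C57BL/6J and FVB.D300.F1 of FVB/N were sons of females given 300 mg/kg/day of the phthalate DEHP in corn oil, and C57.D300.F2 came from males of the former crossed with unexposed females. Dosing ran from embryonic day 9 to 19, and each condition had 5 libraries. The 10 libraries of the C57BL/6J F1 conditions were reused per the labels, the other 15 were new, no condition occurs in both sets and there was no F2 vehicle, so differences of C57.D300.F2 or FVB/N from the reused conditions cannot be told apart from the library set.

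Each value below is 1 estimated fragment count per gene and condition, made by the authors with Cuffdiff from the 5 libraries together. No values of single libraries were used here, so nothing here was checked against replicates or given a p-value. The only error is the SD of each count under Cuffdiff's model, here called the model SD, which is not a measured spread between libraries. Log2 ratios were taken after adding 1 to each count, over genes that reached 10 counts in either condition of a pair, and a gene was called higher or lower at 1 log2 unit. Counts summed to between 6921690 and 8602900 per condition. For genes of at least 100 counts, the median model SD was between 24.4% and 25.0% of the count.

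Transcripts of the sperm lineage were present as labelled, but their level differed widely between conditions. The 16 germ cell and sperm markers summed to 106079 counts in C57BL/6J with vehicle, 89772 with DEHP and 36580 in the F2 generation, and to 8833 in FVB/N with vehicle and 10599 with DEHP. The 10 contractile genes summed to 24256, 13884, 10713, 16406 and 11129 counts in the same order, and every series of 5 values below keeps this order. For each 100 germ cell and sperm counts there were thus 22.9, 15.5, 29.3, 186 and 105 contractile counts. In bulk RNA, fewer cells of a type and less RNA per cell cannot be told apart.

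The sequences of the smooth muscle actins are shown because their reads are the most likely of the set to be shared with other genes. Acta2 encodes the actin of vascular and other smooth muscle, and Actg2 the actin that prevails in visceral smooth muscle. Acta2 lies on the minus strand at chr19:34241090-34255590, and Actg2 on the minus strand at chr6:83512905-83536265 (GRCm38, GENCODE M21). Their coding sequences, 1131 and 1128 bases long, were identical at 952 of 1128 aligned bases, or 84.4%. The longest identical run covered 29 bases, from coding base 637 to 665 of Acta2, and is longer than the shortest reads kept, which had 18 bases. The stretch of 60 bases that separates the genes best held 16 differences, which are in capitals in the lines of Acta2 and Actg2.
Identical run: gacatcaaggagaagctgtgctatgtagc
Acta2, coding bases 436 to 495: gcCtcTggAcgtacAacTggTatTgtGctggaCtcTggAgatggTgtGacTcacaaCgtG
Actg2, coding bases 433 to 492: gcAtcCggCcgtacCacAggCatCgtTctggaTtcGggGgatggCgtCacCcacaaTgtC

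Of all stretches of 18 bases in the longest transcript, 14.7% in Actg2 and 10.3% in Acta2 also occurred in another gene. Actg2 shared most with the cardiac actin Actc1, at 5.02%, and Acta2 with the cytoplasmic actin Actg1, at 4.01%. In the other 8 genes the share lay between 1.63% in Lmod1 and 4.59% in Myh11. At 36 bases it was 1.05% in Acta2, 0.829% in Myh11, 0.539% in Actg2 and below 0.1% in the rest. Short reads of the actins may therefore have been assigned to a paralog, and the actin values carry that uncertainty. Actc1 itself had at most 27.4 counts in any condition.

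Promoters are shown for Acta2 and Myl9, the smooth muscle genes whose windows held a CArG box or a close form of it. A CArG box is the motif bound by serum response factor, a regulator of contractile genes. RefSeq windows from 250 bases before to 50 bases after the start were found for 7 of the 10 genes (GRCm38.p6), namely Acta2, Cnn1, Des, Lmod1, Myl9, Smtn and Tpm2. The motif reads the same on both strands, so each match was counted once. An exact CArG box occurred in 1 of the 7, Myl9, and in 535 of all 32851 windows (1.63%). With 1 substitution allowed in its 6-base core, 2 of the 7 held a match, as did 3280 of all windows (9.98%). The part before the RefSeq start site is printed for both genes, with matches in capitals. Counted from that start, they begin at bases -84 and -34 of Acta2 and at bases -161 (exact) and -99 of Myl9. The RefSeq starts differ from the gene bounds of GENCODE M21, where Acta2 begins at chr19:34255590 and Myl9 at chr2:156775420. Part of each printed stretch therefore lies inside the GENCODE gene. Both matches of Acta2 fall in that part, while both matches of Myl9 lie before the GENCODE gene.
Acta2 promoter, chr19:34255374-34255623, minus strand: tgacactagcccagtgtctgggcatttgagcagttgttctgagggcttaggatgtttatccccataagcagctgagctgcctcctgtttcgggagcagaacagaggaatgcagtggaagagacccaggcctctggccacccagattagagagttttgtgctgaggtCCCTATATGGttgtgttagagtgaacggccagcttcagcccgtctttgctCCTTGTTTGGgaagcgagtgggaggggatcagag
Myl9 promoter, chr2:156775214-156775463, plus strand: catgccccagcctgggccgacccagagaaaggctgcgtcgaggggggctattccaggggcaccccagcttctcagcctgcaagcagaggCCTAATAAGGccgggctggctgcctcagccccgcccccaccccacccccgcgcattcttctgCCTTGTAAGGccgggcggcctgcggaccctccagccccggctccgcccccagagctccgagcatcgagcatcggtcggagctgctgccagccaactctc

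Among the actins, Acta2 had 7041, 4095, 3258, 4996 and 3232 counts. Its model SDs were 3321, 1397, 1054, 1827 and 1039 counts. Vehicle stood above DEHP in each strain, and C57.D300.F2 was close to FVB.D300.F1 at the bottom. The ratio of DEHP to vehicle in the first generation was -0.78 log2 units in C57BL/6J and -0.63 in FVB/N, and each difference lay within its model SD. Actg2 had 1026, 767, 630, 786 and 654 counts. Its order resembled that of Acta2, over a narrower range, with DEHP ratios of -0.42 in C57BL/6J and -0.27 in FVB/N. For each 100 counts of Acta2 there were 14.6 of Actg2 with vehicle in C57BL/6J and 15.7 in FVB/N, against 18.7 and 20.2 in the F1 conditions with DEHP.

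Myh11, the myosin heavy chain of smooth muscle, lies on chromosome 16 from 14194535 to 14291372. It had 5734, 3316, 2298, 4425 and 3151 counts. C57.D300.F2 was lowest, and both vehicle conditions stood above all the others. The DEHP ratios were -0.79 in C57BL/6J and -0.49 in FVB/N, both differences within their model SD.

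Myl9, the regulatory light chain whose phosphorylation starts contraction, lies on chromosome 2 from 156775420 to 156781658. Its counts were 2681, 1484, 1081, 1727 and 1120. Here, too, both vehicle conditions were higher than every other condition. The DEHP ratios were -0.85 in C57BL/6J and -0.62 in FVB/N. In this gene the difference exceeded its model SD in both strains, with 1197 fewer counts against a model SD of 1023 in C57BL/6J and 606 fewer against 555 in FVB/N.

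The regulators bound along the thin filament were Cnn1, Tagln, Tpm2 and Smtn. Cnn1 encodes calponin, which binds actin and inhibits the myosin ATPase, and lies on chromosome 9 from 22099216 to 22109630. It had 2827, 1265, 848, 833 and 524 counts, and C57.CTL.F1 stood apart above the rest. The DEHP ratio of -1.16 in C57BL/6J, a 2.24-fold lower count, was the largest of the 10 genes there, and in FVB/N it was -0.67. Cnn1 also had the largest model SDs of the set relative to its count, at 47.1% to 55.6%, and both differences lay within them. For each 100 counts of Acta2, there were 40.2, 30.9, 26.03, 16.7 and 16.2 counts of Cnn1. Cnn1 was thus scarcer relative to Acta2 in FVB/N, with and without DEHP, than in any C57BL/6J condition. No model SD was computed for these relative counts, and those of the C57BL/6J F1 conditions come from the reused libraries.

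Tagln encodes transgelin, an actin-binding protein also known as SM22, and lies on chromosome 9 from 45929619 to 45936058. It had 1107, 664, 638, 735 and 461 counts. The DEHP ratios were -0.74 in C57BL/6J and -0.67 in FVB/N, within the model SDs. Tpm2, a tropomyosin that runs along the actin filament, lies on chromosome 4 from 43514711 to 43523765. It had 2240, 1203, 893, 1829 and 1323 counts, with both vehicle conditions above the rest. In C57BL/6J the DEHP ratio of -0.90 came from 1037 fewer counts, more than the model SD of 810, and in FVB/N the ratio was -0.47, within it.

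Smtn, which encodes smoothelin and is found in fully contractile smooth muscle, lies on chromosome 11 from 3517523 to 3540612. It had 324, 289, 333, 301 and 206 counts. Smtn departed from the other 9 genes, since C57.D300.F2 was its highest condition and FVB.D300.F1 alone was low. The DEHP ratio in C57BL/6J was -0.16, and the difference of 34.6 counts lay within the model SD of 104. In FVB/N the ratio was -0.55, and the difference of 95.4 counts exceeded the model SD of 86.8.

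Lmod1 encodes leiomodin, which nucleates actin filaments in smooth muscle, and lies on chromosome 1 from 135324807 to 135368065. It was the least abundant of the set, with 176, 93.1, 94.4, 126 and 89.9 counts. C57.D300.F1, C57.D300.F2 and FVB.D300.F1 had nearly the same count. The ratio of -0.91 in C57BL/6J came from 83.3 fewer counts against a model SD of 52.4, and in FVB/N the ratio was -0.48, within its model SD. Des encodes desmin, the intermediate filament of muscle cells of all kinds, and lies on chromosome 1 from 75360329 to 75368579. It had 1098, 709, 639, 649 and 368 counts, so that C57.CTL.F1 was highest and FVB.D300.F1 lowest, with the others together between them. Its ratios were -0.63 in C57BL/6J and -0.82 in FVB/N, and both differences exceeded their model SD.

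**Figure D1:**
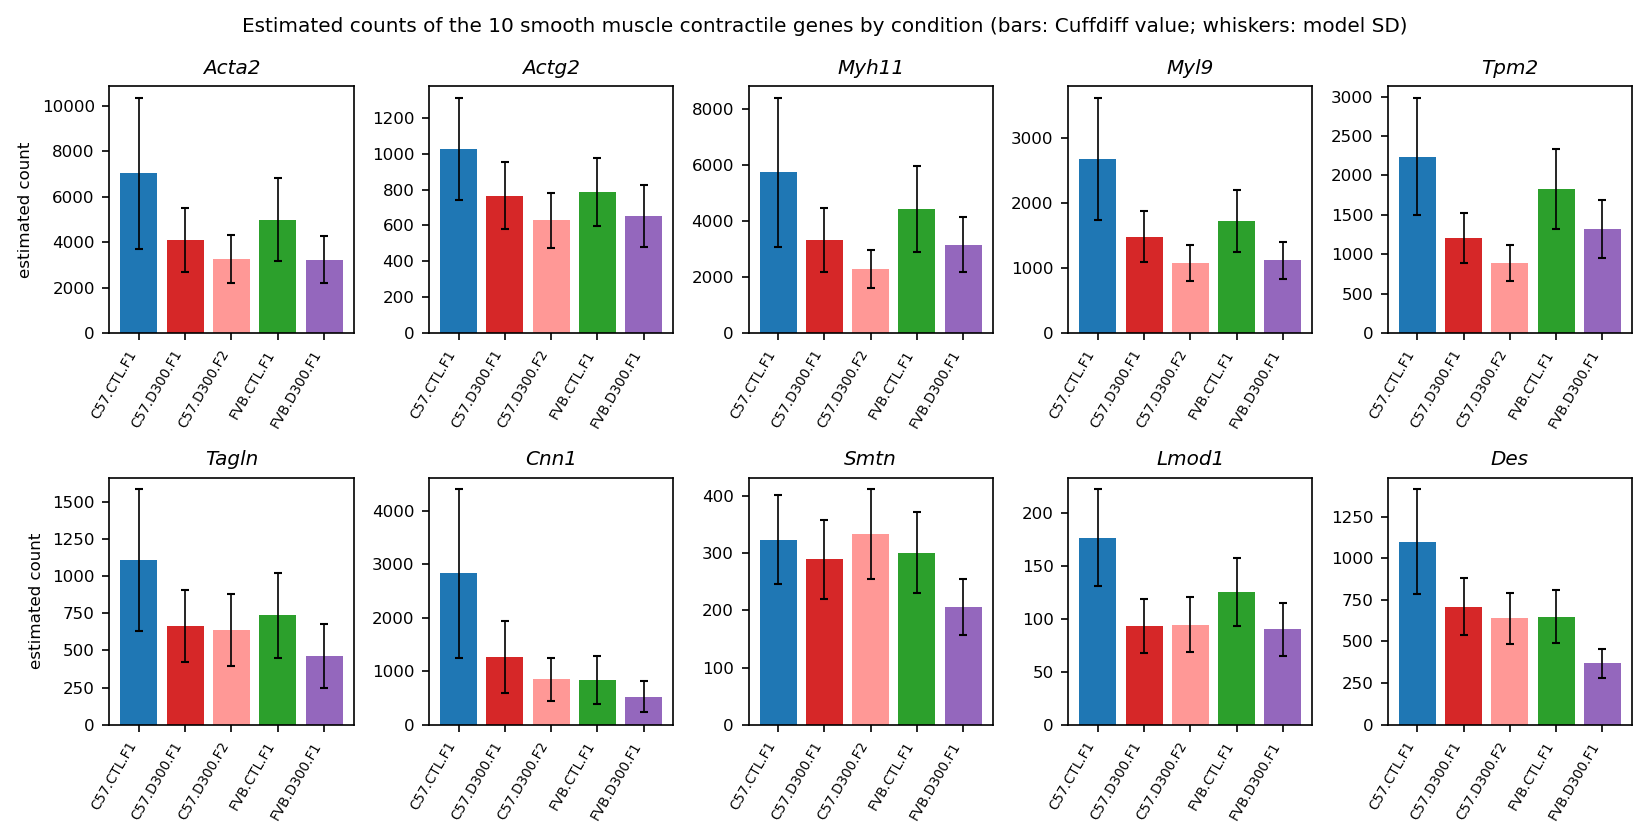
Bars show the estimated count (vertical axis, fragments, from 0, with its own scale in each panel) of each smooth muscle gene in the 5 conditions, and whiskers show the model SD, with no spread between libraries. In each of the 10 panels the vehicle bar is higher than the F1 DEHP bar of its strain, and in 9 of them C57.CTL.F1 is the highest bar, with Smtn the exception.

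Levels of different genes were compared per kilobase of the longest transcript. Acta2 ranked 1 and Myl9 ranked 2 in all 5 conditions, while Des, Smtn and Lmod1 held ranks 8, 9 and 10 in all of them. In C57.CTL.F1 the levels were 3460 counts per kilobase for Acta2, 2377 for Myl9, 1187 for Cnn1, 1030 for Tpm2, 876 for Myh11, 769.6 for Actg2, 694 for Tagln, 363 for Des, 95.7 for Smtn and 44.7 for Lmod1. Neighbours in this order from Cnn1 down to Tagln did not differ beyond their model SD, nor did Acta2 and Myl9. Cnn1 varied most in rank, from rank 3 in C57.CTL.F1 to between 5 and 7 in the other conditions. The low level of Lmod1 and Smtn held in every condition, with at most 44.7 and 98.5 counts per kilobase.

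The first question of the design was how prenatal DEHP relates to sperm RNA within each strain. In C57BL/6J all 10 contractile genes had fewer counts with DEHP, while 51.7% of 16825 genes did, and 9 of the 10 did when the conditions were scaled to the germ cell and sperm markers, with Smtn at 0.093. In FVB/N all 10 were again lower, against 49.4% of 16471 genes, and they were under every scaling tried. Over both strains together, 25.8% of 15720 genes were lower with DEHP in each. The sum of the 10 genes was 42.8% lower in C57BL/6J and 32.2% lower in FVB/N. These comparisons share no condition and each stays within 1 set of libraries. As markers of the same cell type, the 10 genes may vary together, so they are not 10 independent observations.

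The size of the shift was moderate in both strains. The median log2 ratio of the 10 genes was -0.79 in C57BL/6J, where the median of all genes was -0.01 and 1.95% of genes were at or below the contractile median. In FVB/N it was -0.59, where all genes had a median of 0.00 and 2.86% were at or below it. At 1 log2 unit, Cnn1 was the single gene called lower in C57BL/6J, where 1.15% of all genes were called lower. None of the 10 was called in FVB/N, where 0.619% of all genes were called lower. The difference exceeded its model SD for Des, Myl9, Lmod1 and Tpm2 in C57BL/6J, where 3.13% of all genes were lower by more than that, and for Des, Myl9 and Smtn in FVB/N, against 1.89%.

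**Figure D2:**
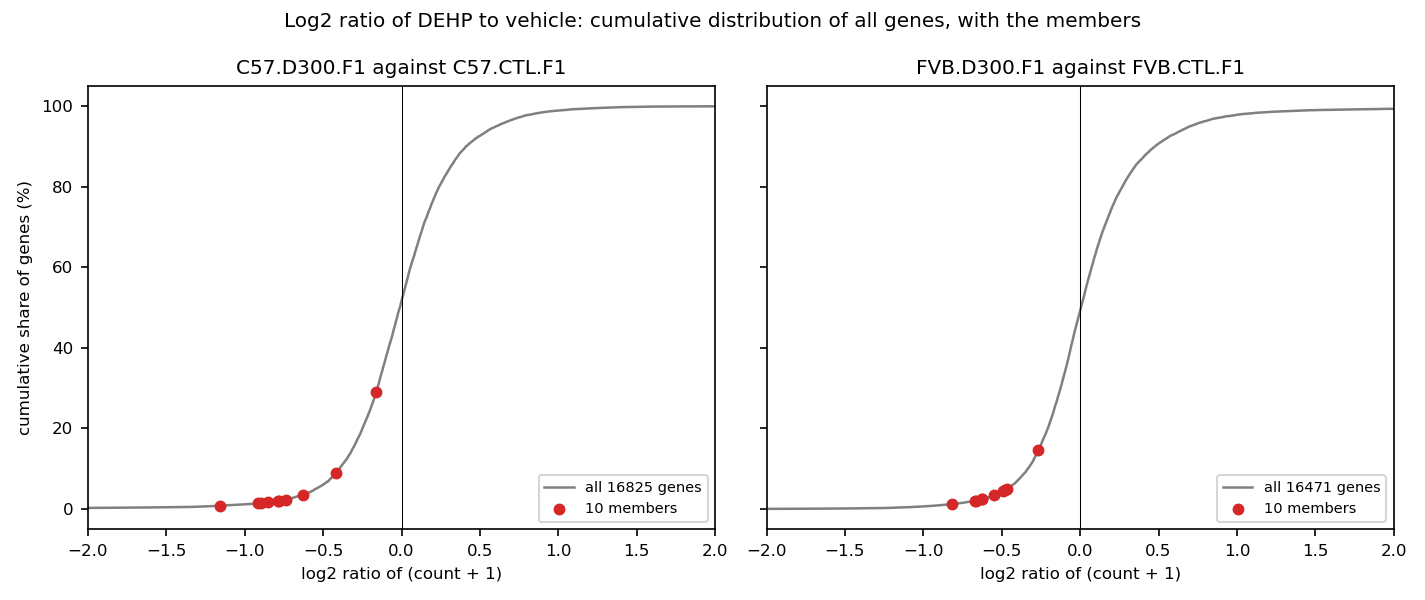
The curve gives the share of all genes (vertical axis, %) at or below each log2 ratio of DEHP to vehicle (horizontal axis, shown to 2 units either side), with the 10 contractile genes as red points on it. The points lie left of 0 in both strains, from -1.16 for Cnn1 to -0.16 for Smtn in C57BL/6J and from -0.82 for Des to -0.27 for Actg2 in FVB/N, and Smtn in C57BL/6J lies at 0.093 when scaled to the germ cell and sperm markers.

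The strain by exposure interaction, the DEHP ratio in FVB/N minus that in C57BL/6J, was positive for 8 of the 10 genes as deposited, for 4 with equal totals and for 0 with scaling to the germ cell and sperm markers. Of all 17556 genes 53.3% were positive. The median of the 10 was 0.19, and that of all genes 0.03, or -0.42 and -0.56 when scaled to the germ cell and sperm markers. It ranged from -0.38 for Smtn to 0.49 for Cnn1, with Des at -0.19 the other negative value. None of the 10 reached 1 log2 unit in either direction, while 4.45% of all genes did upward and 2.92% downward. The difference between the strains was not tested, as each strain has 1 value per condition.

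The next question was whether a difference was seen in the second generation. C57.D300.F1 and C57.D300.F2 were each compared with C57.CTL.F1, so the comparisons share that condition and their ratios are not independent. Against C57.CTL.F1, 9 of the 10 genes were lower in C57.D300.F2, with Smtn at 0.041, where 53.2% of all genes were lower, and 4 of the 10 were when scaled to the germ cell and sperm markers. The genes called lower were Cnn1 at -1.74, Tpm2 at -1.33, Myh11 at -1.32, Myl9 at -1.31 and Acta2 at -1.11, thus 5 of 10, where 10.2% of all 17114 genes were called lower. Actg2, Tagln, Des and Lmod1 were at -0.70, -0.79, -0.78 and -0.90. The median of the 10 was -1.004, against -0.04 for all genes. With equal totals it was -0.69, with all genes at 0.28. Scaled to the germ cell and sperm markers it was 0.12, with all genes at 1.07. The sign of the contractile median thus depends on that scaling, while it lay below the median of all genes in each of these settings. The difference exceeded its model SD for 8 of the 10, with Tagln and Smtn the exceptions, against 18.2% of all genes that were lower by more than that.

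C57.D300.F1 and C57.D300.F2 were closer to each other. Of the 10 genes, 8 were lower in F2, or 6 with equal totals or upper-quartile scaling, where 54.4% of all genes were. The median ratio was -0.31, with all genes at -0.05, and 30.0% of genes were at or below the contractile median. Scaled to the germ cell and sperm markers, the contractile median was 0.57, with all genes at 0.82. Cnn1 was lowest at -0.58 and Myh11 next at -0.53, while Smtn was at 0.20 and Lmod1 at 0.02. None of the 10 was called, where 8.35% of 17133 genes were called lower, and none of the differences exceeded its model SD, where 15.7% of all genes were lower by more than that. Cnn1, Myh11, Myl9 and Tpm2 had the lower ratios, and Tagln at -0.06 and Des at -0.15 were close to level between the generations.

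The strain difference without exposure was the third comparison. With vehicle, all 10 genes were lower in FVB/N, or 9 with equal totals, where Smtn was at 0.079, and 51.8% of all genes were. Their median was -0.49, but 30.6% of all genes were at or below this median. Scaled to the germ cell and sperm markers, it was 2.64, with all genes at 3.07. Cnn1 was the single gene called lower, at -1.76 or 3.39-fold (1.38 with germ cell scaling), where 18.8% of 17086 genes were called lower. Des followed at -0.76, and for these genes alone the difference exceeded its model SD, where 25.3% of all genes were lower by more than that. Smtn at -0.11 and Tpm2 at -0.29 were closest between the strains. With DEHP in both strains, 9 of the 10 were lower in FVB/N, or 7 with upper-quartile scaling, where 53.3% of all genes were. The median was -0.37, with 37.3% of genes at or below it. Scaled to the germ cell and sperm markers, it was 2.16, with all genes at 2.46. Cnn1 at -1.27 was again the single gene called, where 19.9% of 17377 genes were called lower, Des was at -0.94, and Tpm2 was higher in FVB/N, at 0.14. Cnn1 and Des alone exceeded their model SD, where 27.8% of all genes were lower by more than that.

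**Figure D3:**
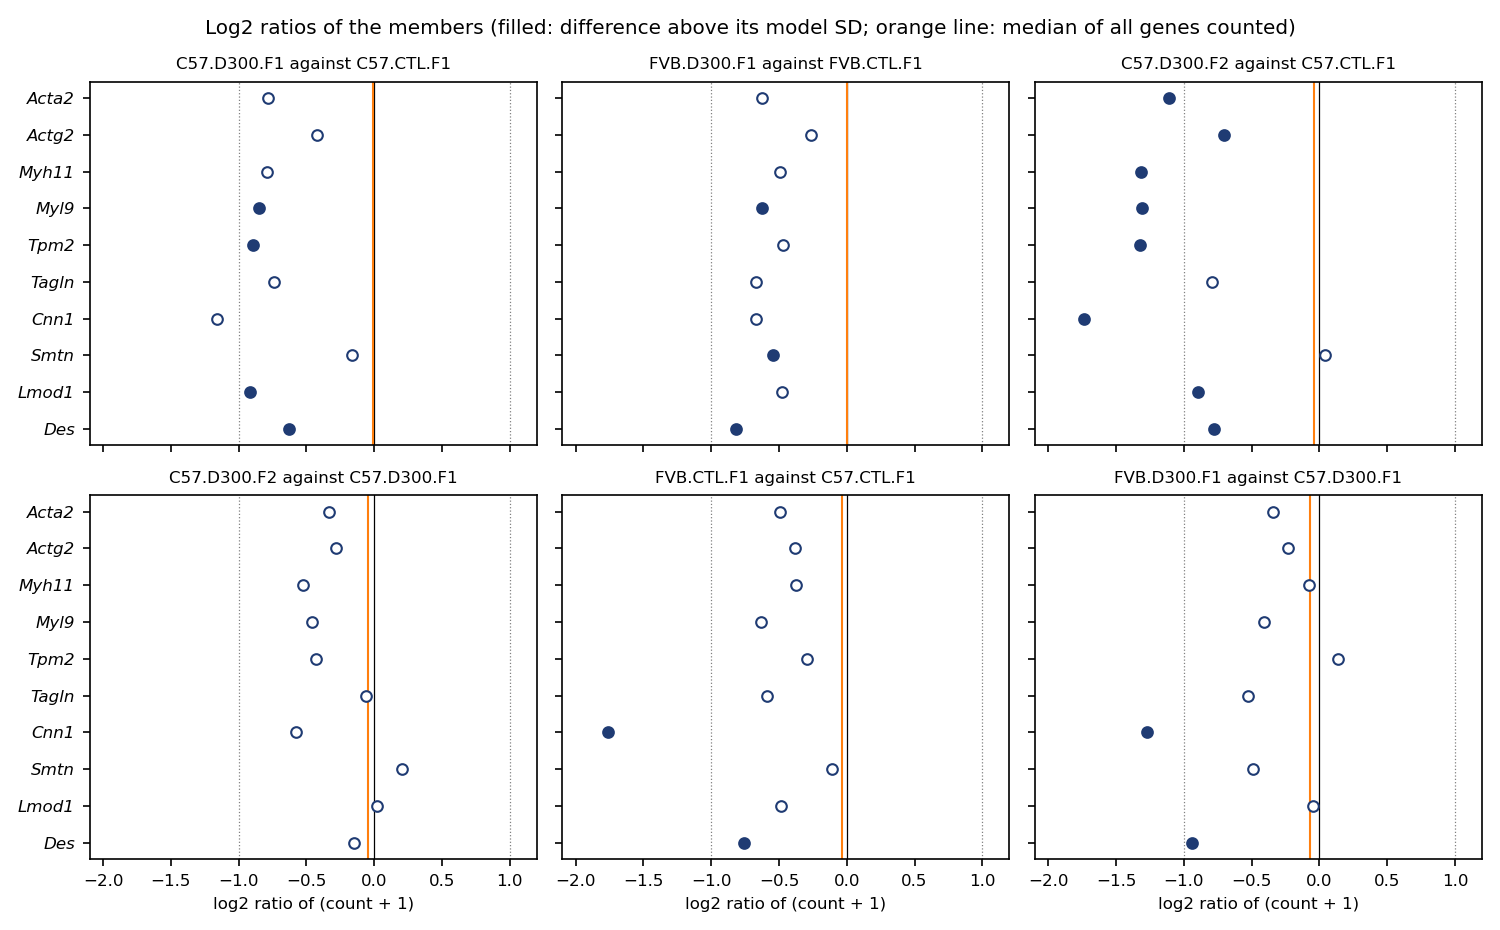
Each panel shows the log2 ratio (horizontal axis, with dotted lines at 1 unit either side) of the 10 contractile genes in 1 of the 6 comparisons, filled where the difference exceeds its model SD, with the median of all genes as an orange line. The points lie furthest left in the panel of C57.D300.F2 relative to vehicle, and Cnn1 is the lowest point in 5 of the 6 panels, with Des lowest in FVB/N with DEHP against vehicle. Scaling to the germ cell and sperm markers turns the medians of the F2 and strain panels positive, and the median of all genes is then higher still in each of these panels.

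Other genes of the same contractile machinery were lower by a smaller amount. Of 20 further contractile and cytoskeletal genes, 15 were lower with DEHP in C57BL/6J, with a median of -0.31, and 19 in FVB/N, with a median of -0.34. None was called in either strain. Of all genes, 1.15% were called lower and 1.09% higher in C57BL/6J, and 0.619% and 2.16% in FVB/N. With shares this small, a list of 20 without a call says little. The medians kept their sign under every scaling, though that of C57BL/6J was -0.023 when scaled to the germ cell and sperm markers. Myl6, the essential myosin light chain, had 5026, 3685, 2619, 4164 and 3714 counts, and DEHP ratios of -0.45 and -0.16. Mylk, the kinase that phosphorylates Myl9, had 3172, 2215, 1801, 2418 and 1780 counts, and ratios of -0.52 and -0.44. Flna, a filamin that crosslinks actin and is used by many cell types, had the highest counts of this list, and ratios of -0.19 and -0.25. In FVB/N Synpo2, an actin-bundling protein of muscle, was lowest at -0.86.

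In C57.D300.F2 the same list had a median of -0.39 relative to C57.CTL.F1. Scaled to the germ cell and sperm markers it was 0.74, with all genes at 1.07. Cald1, caldesmon, was the lowest at -1.36 and the single gene of the 20 called lower, where 10.2% of all genes were called lower, with 1202, 989, 467, 545 and 384 counts. Its ratio of FVB/N to C57BL/6J with vehicle was -1.14. Counting the 10 contractile genes for each 100 counts of these 20, the values were 85.7, 61.9, 56.5, 66.6 and 55.5. The contractile genes were thus lower relative to the broader list in C57.D300.F1, C57.D300.F2 and FVB.D300.F1 than with vehicle of the same strain.

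The regulators of the contractile program had no common direction in C57BL/6J as deposited. All 9 were higher when scaled to the germ cell and sperm markers, with a median of 0.26 beside 0.23 for all genes. Of 9 regulators, 4 were lower and 5 higher with DEHP there, with a median of 0.00, and in FVB/N 8 of 9 were lower, with a median of -0.33. Srf, serum response factor, was at -0.02 in C57BL/6J and -0.34 in FVB/N. Its coactivator Myocd, myocardin, was the lowest regulator in C57BL/6J, with 81.9 counts with vehicle and 68.8 with DEHP, a ratio of -0.25. In FVB/N Myocd had 54.9 and 41.4 counts, a ratio of -0.40. Klf4, a factor that represses contractile genes, had counts between 210 and 530 and was the lowest in FVB/N at -0.56. On the higher side in C57BL/6J, Foxf1 was at 1.05, with 10.7 and 23.2 counts. It was the single regulator called there, where 1.09% of all genes were called higher. Mef2c was at 0.83 and Gata6 at 0.43 in C57BL/6J. In FVB/N Foxf1 was at 0.50, Mef2c at -0.46 and Gata6 at -0.33. Srf, Myocd, Foxf1, Mef2c and Gata6 were chosen for mention after their values were seen.

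Receptors and second messenger enzymes of duct contraction were spread around 0 as deposited. Of 19 with values, 10 were lower with DEHP in C57BL/6J (median -0.03, or 0.12 with equal totals) and 12 in FVB/N (median -0.07). Scaled to the germ cell and sperm markers, the medians were 0.24 and -0.42, with all genes at 0.23 and -0.34. P2rx1, the ATP receptor of smooth muscle, was the lowest in C57BL/6J at -0.71, with 165 and 101 counts, and was at -0.07 in FVB/N. Oxtr, the oxytocin receptor, was the highest in FVB/N, with 27.1 counts with vehicle and 149 with DEHP, a ratio of 2.42, while in C57BL/6J it had 11.2 and 14.1 counts. In FVB/N 2 of the 19 were called higher, where 2.16% of all genes were. The other was Prkg1, named for that reason, with 158 and 396 counts, a ratio of 1.32, and -0.12 in C57BL/6J. The 19 genes were not the same in both strains, since Rock1 had a failed estimate in the reused conditions and was left out in C57BL/6J, and Chrm2 was below the count minimum in FVB/N.

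As deposited, the non-muscle counterparts of these genes had a median near 0 in C57BL/6J and below it in FVB/N. In C57BL/6J it was 0.18 with equal totals, with all genes at 0.14. Scaled to the germ cell and sperm markers it was 0.29 there, with all genes at 0.23. Of 13 paralogs counted, which include cytoplasmic actins and non-muscle myosins, 6 were lower with DEHP in C57BL/6J, with a median of 0.03 (-0.0033 with median-of-ratios factors), and all 13 in FVB/N, with a median of -0.29. Actb had 9070 and 9555 counts in C57BL/6J, a ratio of 0.08, and 5832 and 4753 in FVB/N, a ratio of -0.30. Myh9 had ratios of 0.11 and -0.19, and Actg1 of 0.26 and -0.32. For each 100 counts of the paralogs there were 103, 55.3, 46.9, 68.1 and 54.7 contractile counts. The smooth muscle forms were therefore lower relative to their paralogs with DEHP in both strains.

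Genes of striated muscle differed in opposite directions in the strains. In C57BL/6J 15 of 16 were higher with DEHP, 9 of them called, with a median of 1.15, where 1.09% of all genes were called higher. In FVB/N 13 of 15 were lower, 5 of them called, with a median of -0.77, where 0.619% of all genes were called lower. Ttn, the giant spring protein titin of the sarcomere, had 6874 and 15426 counts in C57BL/6J and 3227 and 1715 in FVB/N. Des is made in both kinds of muscle, and it was lower with DEHP in both strains.

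Markers of other cells that could be carried along with sperm also differed between conditions. The 11 fibroblast and matrix markers summed to 43620, 61192, 69613, 46442 and 38371 counts, and none was at 0 in any condition. In C57BL/6J all 11 were higher with DEHP, with a median of 0.52, and in FVB/N all 11 were lower, with a median of -0.20. For each 100 of their counts there were 55.6, 22.7, 15.4, 35.3 and 29.0 contractile counts. The 9 endothelial markers had medians of 0.20 in C57BL/6J and -0.14 in FVB/N, and the markers of vascular mural cells, counted for 6 and 7 genes, had medians of -0.17 and 0.11, which became 0.083 and -0.24 when scaled to the germ cell and sperm markers. The contractile genes were thus lower in C57BL/6J where fibroblast, endothelial and leukocyte markers (median 0.37, 10 of 10 higher) were higher.

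In FVB/N, the epididymal epithelium markers had a median of 2.42 with DEHP, with 8 of 16 called higher, where 2.16% of all genes were called higher. Those 8 lay between 4.30 and 9.36 and the others between -0.20 and 0.53, so no gene was near the median. Some of the called genes, Lcn5 among them, reached 10 counts in FVB.D300.F1 alone, and the paper lists Lcn5 among the RNAs raised there. In C57BL/6J 13 of the markers were counted, and their median was -0.22, or 0.097 when scaled to the germ cell and sperm markers. Germ cell and sperm markers themselves had medians of -0.15 in C57BL/6J and 0.37 in FVB/N as deposited. For C57.D300.F2 relative to C57.CTL.F1 the germ cell median was -1.04, beside -1.004 for the contractile genes, and for FVB/N relative to C57BL/6J with vehicle it was -3.03. Liver markers summed to 222834, 187769, 4864, 1132 and 747 counts, and seminal vesicle markers to 226304, 687, 1240, 2136 and 2024. With DEHP against vehicle, the liver markers had medians of -0.54 in C57BL/6J and -0.64 in FVB/N, and the seminal vesicle markers of -11.59 and -0.46. The part of these other cells, and of the scaling they bear on, in the contractile results was not tested.

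**Figure D4:**
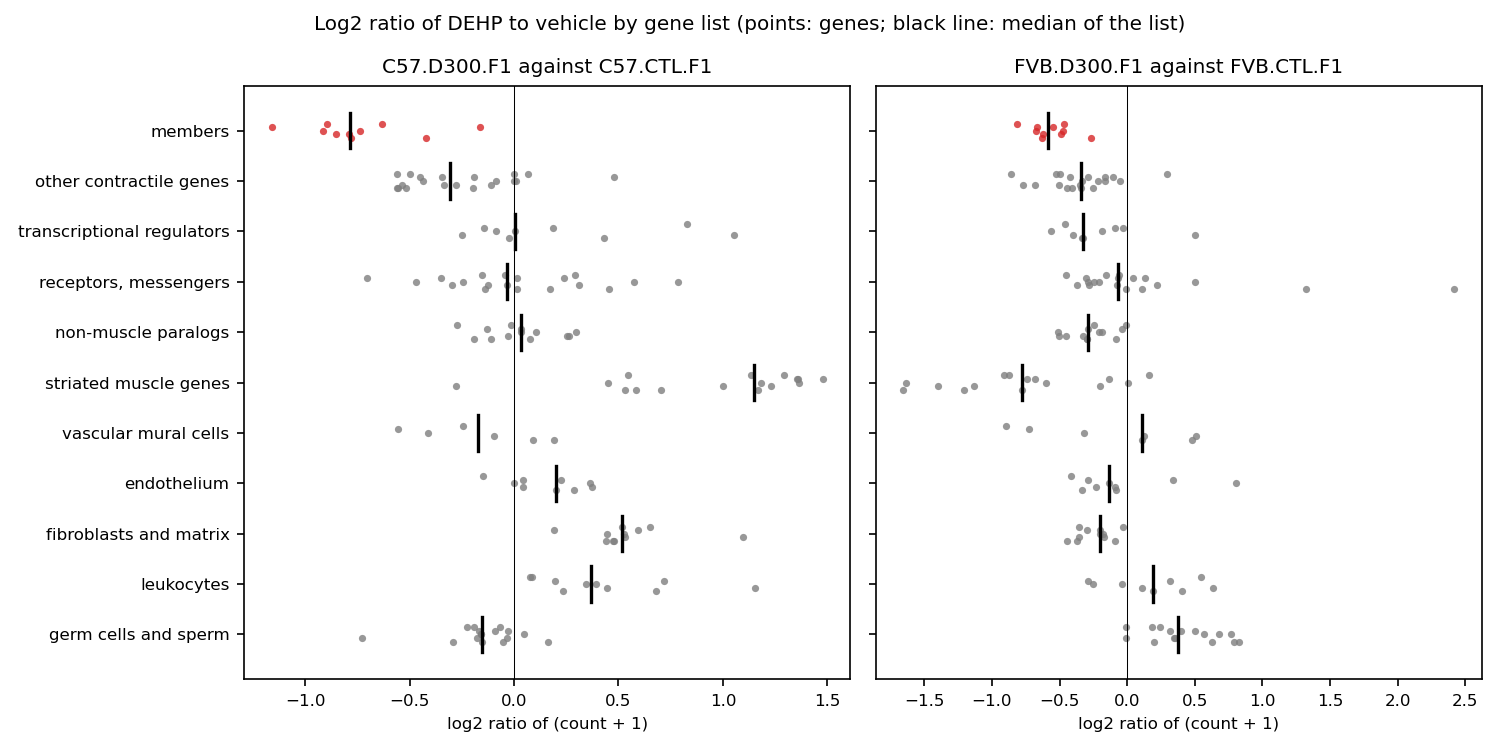
Each point is a gene, placed by its log2 ratio of DEHP to vehicle (horizontal axis) in C57BL/6J or FVB/N, in rows for the 10 contractile genes (red) and 10 other lists, with a black line at the median of each. The contractile genes lie left of 0 in both strains, with medians of -0.79 and -0.59, while 15 of 16 striated muscle genes and all 11 fibroblast markers lie right of 0 in C57BL/6J, and 13 of 15 and all 11 left of it in FVB/N.

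The profile of the 10 genes over the 5 conditions was summarised as the median of their log2 counts, each centred on the gene's own mean. It stood at 0.67, -0.05, -0.29, 0.13 and -0.43. Acta2 lay closest to it, with a root mean square distance of 0.066 log2 units. Cnn1 lay farthest, at 0.49, followed by Smtn at 0.32. Among 8018 genes outside the lists with at least 100 counts in every condition, the 5 closest to the profile were Slc24a3 at 0.0900, Rpl21 at 0.0985, Akr1c13 at 0.0997, Dnajb2 at 0.105 and Rps6 at 0.106. Slc24a3 encodes a sodium, potassium and calcium exchanger and had 469, 268, 220, 352 and 225 counts. Rpl21 and Rps6 encode ribosomal proteins, and Rps6 had 10576, 7009, 4941, 6457 and 4950 counts. These distances rest on 5 values a gene and have no test.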

How the data were processed

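The all-RNA-seq libraries were clipped of the RA3 adapter, mapped to mm10 with TopHat with strand options and quantified with Cuffdiff by the authors, with a minimum read length of 18 bases and base calling in CASAVA 1.8.2. The deposited signal is 1 estimated count per gene and condition, not divided by length, and how it was scaled between libraries is not stated. The authors also deposited each count's model variance from Cuffdiff, whose square root is the model SD. The Cuffdiff options and annotation release are not given in the sources used here. In all, 10 columns were used, and 71 genes with a failed estimate in at least 1 condition were treated as missing there.

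Ratios used a pseudocount of 1, a minimum of 10 counts and a threshold of 1 log2 unit. The model SD of a difference is the square root of the summed variances. The 10 genes, 13 other lists (168 genes, all found, 4 under an older symbol), the rules and the tests were chosen with earlier results of these data known. All 10 genes are named. From other lists, genes of at least 100 counts in 1 condition could be named if among the 3 with the highest counts or highest or lowest in a ratio, and only some of these were. Paralogs were named where reads could be shared, and exceptions are stated. Alternatives varied the scaling (equal totals, median-of-ratios, upper quartile, or the median over the germ cell and sperm markers of each log count centred on its gene), pseudocount, minimum, threshold, model SD and length. Scripts were tested on simulated data. The software was matplotlib 3.10.9, scipy 1.17.1, pandas 2.3.3 and numpy 2.4.6 under Python 3.11.15. Coordinates are those of GENCODE M21.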

Additional observations from a re-analysis of the deposited data

Results flagged for a closer look

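For 4 marker lists, the median log2 ratio of DEHP to vehicle had opposite signs in the strains and differed by at least 0.5 log2 units, and none of these differences was tested. Endothelial and vascular mural markers, non-muscle paralogs and regulators of the contractile program also had medians of opposite sign, with smaller differences. FVB/N minus C57BL/6J was -1.92 for striated muscle genes (1.15 in C57BL/6J and -0.77 in FVB/N). It was -0.72 for fibroblast and matrix markers (0.52 and -0.20). It was 2.63 for epididymal epithelium markers (-0.22 over 13 genes and 2.42 over 16, with no gene near 2.42), and 0.53 for germ cell and sperm markers (-0.15 and 0.37). Scaled to the germ cell and sperm markers, the epididymal median in C57BL/6J became 0.097, so that list then had the same sign in both strains. The last pair of medians became 0.10 and 0.021. This scaling is built from those same genes and holds their median near 0, so its sign says nothing about the strains. The contractile genes had medians of the same sign in both strains.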

How the results depend on the processing

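No paired analysis was possible because the deposited table has 1 value per condition and carries no replicate numbers. Leaving out single libraries was not run for the same reason. Scaling to the germ cell and sperm markers moved the median of all genes by 0.24 and -0.34 log2 units for DEHP in C57BL/6J and FVB/N, by 1.11 and 0.87 for C57.D300.F2 against C57.CTL.F1 and C57.D300.F1, and by 3.10 and 2.53 for FVB/N against C57BL/6J with vehicle and DEHP. Equal totals moved it by at most 0.32, the upper quartile by at most 0.23, and median-of-ratios factors by at most 0.044 in size. Under the germ cell scaling, the contractile median changed sign to 0.12 and 0.57 for C57.D300.F2 against C57.CTL.F1 and C57.D300.F1, to 2.64 and 2.16 for FVB/N against C57BL/6J with vehicle and DEHP, and to -0.42 for the interaction, and with equal totals the interaction was -0.089. In the same order, the median of all genes under the germ cell scaling was 1.07, 0.82, 3.07, 2.46 and -0.56. Single genes changed sign under it as well, with Acta2 at 0.020 in C57.D300.F2 relative to C57.CTL.F1, and Cnn1 at 1.38 and 1.26 in the strain comparisons. The DEHP medians in both strains kept their sign under every alternative. For DEHP in C57BL/6J, the called genes went from 1 to 0 with germ cell scaling, at 2 log2 units, or with the model SD required as well, and in FVB/N from 0 to 3, all lower, with germ cell scaling. For C57.D300.F2 against C57.CTL.F1 the 5 genes called lower became 3 with equal totals and 0 at 2 log2 units, and with germ cell scaling none was called lower and 1, Smtn, was called higher, as it was against C57.D300.F1. For FVB/N against C57BL/6J with vehicle and with DEHP, the 1 gene called lower became 0 at 2 log2 units. With germ cell scaling none was called lower and all 10 were called higher, where all genes had medians of 3.07 and 2.46. With equal totals 2 were called lower with DEHP. The share of all genes called was not counted under the scalings, so the scaled counts of called genes have no background here. The germ cell scaling moved the median of all genes in the direction of the calls gained under it. Without the actins and Tpm2 every median kept its sign. The causes were not tested. The counting of genes lower by any amount and lengths over all exons were chosen after seeing the data. Exon lengths moved ranks per kilobase of Myh11, Cnn1, Tagln and Tpm2.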
